A study of Homo sapiens with 40 samples.

Results

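The comparison is between BEAS-2B cells given 1 uM ONO-AE1-329 together with 1 uM RNO and BEAS-2B cells given 1 uM RNO alone, each for 2 h, with 4 libraries a group. These are 8 of the 40 libraries of the series, and were taken by their labelled treatment. Levels are given as TPM, the name the deposited table uses for its normalised abundances, whose library totals are unequal. Of 15788 genes in the table, the 12591 whose mean over the series reached 1 TPM were tested. BEAS-2B is an immortalised human bronchial epithelial cell line, and the cells were treated at confluence after a night without serum. ONO-AE1-329 (here ONO) activates EP4, a receptor for prostaglandin E2, and RNO is roflumilast N-oxide, an inhibitor of the PDE4 phosphodiesterases. Both groups received RNO, so the comparison shows what the agonist added in cells whose PDE4 was inhibited. Other groups of 4 libraries, used here only beside this comparison, received 1 uM ONO alone, vehicle, 0.1 nM or 1 nM ONO with RNO, or 100 nM vilanterol (a bronchodilator that raises cAMP through another Gs-coupled receptor) with RNO. No label tells whether the replicates of a group were grown as separate cultures. The p-values therefore refer to variation between these libraries, which may be technical.

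EP4 couples through the G protein Gs to adenylyl cyclase, which makes cAMP. PDE4 enzymes break cAMP down, so an inhibitor of PDE4 and an agonist of a Gs-coupled receptor act on the same second messenger. cAMP activates protein kinase A, which phosphorylates the transcription factor CREB, and CREB bound at cAMP response elements (CRE) turns on a set of early genes that includes the NR4A orphan nuclear receptors. In airway epithelium, genes of this kind are studied as part of the action of bronchodilators and PDE4 inhibitors used in obstructive lung disease.

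The libraries of the series had summed values of 956888 to 1091466, and the single entry MIR6723 took 24.2% to 27.8% of each. The cells carried simple epithelial keratins, with KRT8 at 331 ± 40.3 TPM with ONO and RNO and 361 ± 46.3 TPM with RNO alone (SD, n = 4 each), and KRT18 at 265 ± 18.7 and 289 ± 26.9 TPM. The mesenchymal genes VIM and COL1A1 were high in both groups, with VIM at 1296 and 1301 TPM and COL1A1 at 511 and 481 TPM. Other mesenchymal markers were lower, with PDGFRB at 57.6 and 54.2 TPM, CDH2 at 39.1 and 38.3 TPM and COL1A2 at 9.57 and 9.96 TPM. PDGFRA and FAP were under 1 TPM in both groups. The epithelial adhesion genes EPCAM and CDH1 were under 1 TPM in both groups, and the epithelial markers KRT5, KRT19 and TP63 had no values. KRT7 was at 15.5 TPM with ONO and RNO and 12.8 TPM with RNO alone. The label of an epithelial line therefore rests here on some of its keratins, beside mesenchymal markers of which some were high and others under 1 TPM. The leukocyte marker LYZ and the endothelial markers PECAM1 and VWF were also under 1 TPM.

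With 1 uM ONO added to RNO, 851 genes rose and 655 fell, which is 12% of the genes tested. A gene counts as called at an adjusted p under 0.05 in limma's moderated test (Benjamini-Hochberg adjustment over all genes tested). The higher genes were 6.76% and the lower genes 5.2% of those tested. The counts of each gene list below are to be read beside these shares, against which no list was tested. The rises were larger than the falls. At least 2-fold changes, on the log2(TPM + 1) scale, were found for 98 higher genes (0.778%) and 4 lower genes (0.0318%), and at least 4-fold changes for 18 higher genes and 0 lower genes. The median log2 fold change was 0.34 for the called higher genes, -0.24 for the called lower genes and -0.01 for all genes tested. Of the 1506 called genes, 1311 had 4 libraries with ONO and RNO that all lay on 1 side of the 4 libraries with RNO alone, and 15.1% of all genes tested did so (7.75% on the higher side and 7.39% on the lower). With the replicate number as a term in the fit, limma called 1300 genes higher and 1264 lower (20.4%), among them all 1506.

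**Figure D1:**
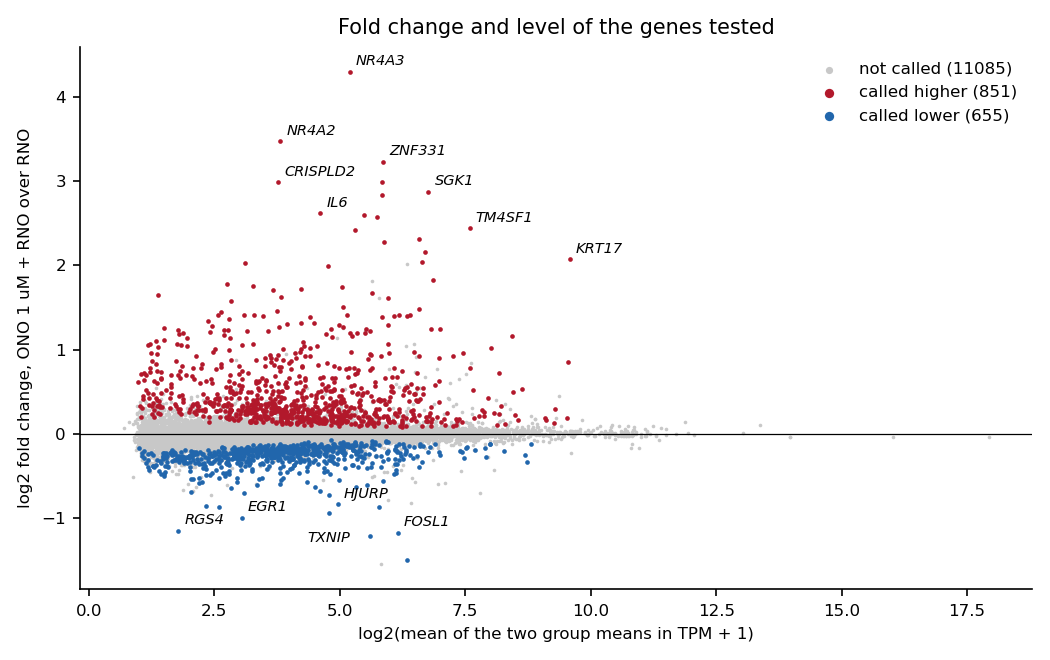
Each gene's log2 fold change of ONO 1 uM + RNO over RNO (vertical axis) is plotted against log2 of the mean level plus 1 in TPM (horizontal axis) for each of the 12591 genes tested, with called genes in colour. The 851 higher genes reach a log2 fold change of 4.30 (NR4A3), whereas the 655 lower genes stay close to 0 apart from a few named ones.

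NR4A3 and NR4A2, orphan nuclear receptors and early CREB targets, had the highest log2 fold changes. NR4A3 was at 71.8, 72.6, 58.5 and 71.5 TPM in replicates 1 to 4 with ONO and RNO, against 1.34, 3.26, 3.69 and 2.29 TPM with RNO alone. This was 25.9-fold higher (log2 fold change 4.30 ± 0.18 (SE), limma adjusted p = 4.37e-19), and no library of either group came near the other. NR4A2 was at 30.3, 26.0, 17.3 and 25.6 TPM with ONO and RNO and at 0.774, 1.35, 2.04 and 1.14 TPM with RNO alone, 18.7-fold higher (limma adjusted p = 6.72e-17). NR4A1, the third member of the family, was at 95.6, 102, 71.2 and 92.7 TPM and 9.36, 16.6, 19.0 and 13.6 TPM, 6.17-fold higher (limma adjusted p = 1.86e-11). For each of the 3 receptors the lowest library with ONO and RNO was above the highest with RNO alone.

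Beside the NR4A genes, the genes with the highest log2 fold changes were a mixed set. The 12 genes named as highest, the NR4A genes among them, were taken from called genes without overlap. Their separation was therefore fixed by the choice. SNORD77, at a log2 fold change of 2.99, had overlapping libraries and was left out. ZNF331, a zinc finger protein, was at 118, 109, 80.4 and 106 TPM with ONO and RNO and 7.62, 11.9, 11.8 and 9.27 TPM with RNO alone, 10.2-fold higher (limma adjusted p = 5.97e-19). CRISPLD2, a secreted glycoprotein, was at 19.4, 23.0, 26.5 and 23.2 TPM with ONO and RNO and 1.57, 2.10, 2.87 and 1.66 TPM with RNO alone, 11.2-fold higher (limma adjusted p = 5.32e-16). SGK1, the serum- and glucocorticoid-regulated kinase, was at 248, 199.6, 145 and 167 TPM with ONO and RNO and 19.98, 23.9, 33.7 and 22.4 TPM with RNO alone, 7.601-fold higher (limma adjusted p = 5.98e-14). Of these 3 genes, SGK1 varied most among its libraries with the agonist. LINC00473, a long non-coding RNA known to be induced by cAMP, was at 98.7, 99.1, 93.0 and 106 TPM and 8.76, 15.1, 15.98 and 13.6 TPM, 7.42-fold higher. TM4SF1, a surface protein with 4 membrane spans, was at 325, 310.3, 341 and 313 TPM and 48.0, 61.0, 75.7 and 52.1 TPM, 5.45-fold higher. RHOB, a small GTPase, was at 178, 167, 132 and 159 TPM and 28.8, 33.3, 33.8 and 28.4 TPM, 5.11-fold higher. Limma's adjusted p was 1.09e-14 for LINC00473, 4.37e-19 for TM4SF1 and 2.74e-14 for RHOB.

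IL6, a cytokine of the acute phase response, was at 55.1, 43.2, 26.3 and 39.4 TPM with ONO and RNO and at 4.19, 6.32, 6.02 and 6.10 TPM with RNO alone, 7.25-fold higher (limma adjusted p = 9.89e-12). RGS2, which shortens signalling by Gq-coupled receptors, was at 107, 69.1, 50.5 and 77.3 TPM and 8.47, 11.6, 13.1 and 12.4 TPM, 6.68-fold higher (limma adjusted p = 2.63e-11). Replicate 3 was the lowest of the 4 ONO and RNO libraries for both genes, as it was for 9 of the 12 genes with the highest log2 fold changes. The small nucleolar RNA SNORA6, the remaining member of those 12, was at 66.0, 34.3, 74.9 and 58.0 TPM and 32.2, 0, 10.6 and 33.1 TPM. It was listed at 0 in RNO replicate 2, and its call (limma adjusted p = 0.0055) was lost when only these 8 libraries were fitted (limma adjusted p = 0.182).

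**Figure D2:**
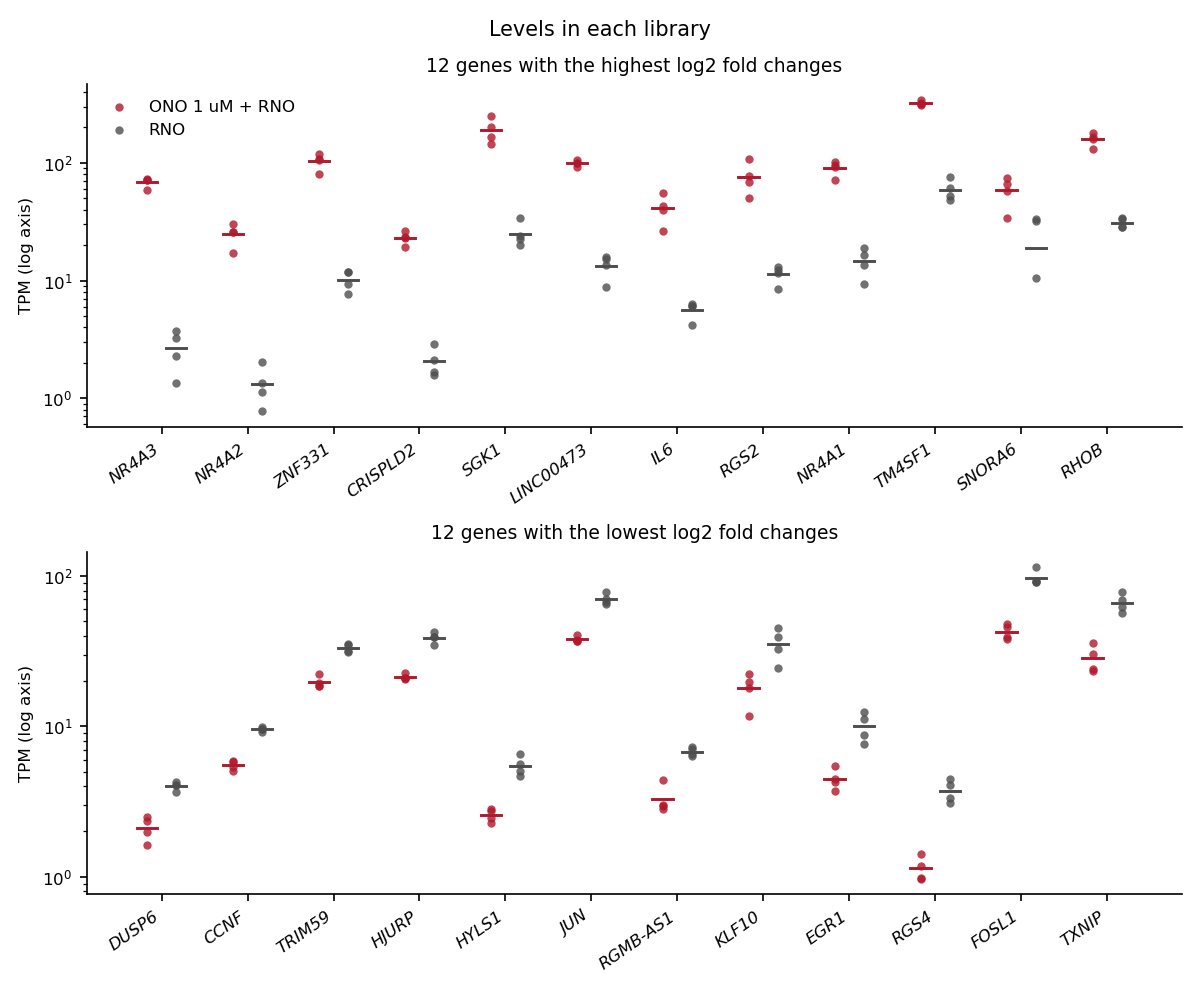
Levels in TPM (log axis) are plotted for each library with ONO 1 uM + RNO (red) and with RNO alone (grey), with a bar at the mean of 4 libraries, for the 12 highest (upper panel) and 12 lowest (lower panel) log2 fold changes among called genes without overlap. The choice of genes without overlap fixed that no library lies on the wrong side. The upper panel spans wider gaps than the lower; SNORA6 has 1 RNO library at 0, which a log axis cannot show.

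Among called genes without overlap, the lowest log2 fold change belonged to TXNIP, which binds thioredoxin and limits glucose uptake. TXNIP was at 23.5, 24.1, 35.7 and 30.3 TPM with ONO and RNO, against 57.0, 62.2, 68.9 and 78.1 TPM with RNO alone, and fell by 1.21 on the log2 scale (SE 0.15, limma adjusted p = 2.48e-07). FOSL1, a Fos-related subunit of the transcription factor AP-1, was at 47.7, 45.5, 39.5 and 38.1 TPM and 114, 92.6, 91.7 and 91.3 TPM, and fell by 1.17 (limma adjusted p = 6.88e-09). JUN, its partner in AP-1, was at 36.8, 40.4, 37.3 and 36.7 TPM and 77.8, 70.0, 67.4 and 64.8 TPM, and fell by 0.87 (limma adjusted p = 1.39e-11). Each of these genes had its highest ONO and RNO library well below its lowest RNO library. RGS4, another regulator of G protein signalling, was at 1.41, 0.970, 0.979 and 1.18 TPM and 4.45, 3.35, 4.06 and 3.11 TPM, and fell by 1.15 (limma adjusted p = 1.46e-08). EGR1, an early growth response factor, was at 4.26, 5.46, 3.71 and 4.47 TPM and 12.5, 11.1, 8.77 and 7.597 TPM, and fell by 0.99 (limma adjusted p = 1.05e-05). DUSP6, a phosphatase that inactivates the kinase ERK, was at 1.63, 2.49, 1.98 and 2.36 TPM and 3.65, 4.07, 4.09 and 4.25 TPM, and fell by 0.69 (limma adjusted p = 2.85e-06). EGR1, DUSP6 and RGS4 are low-level genes here, and their log2 falls on the log2(TPM + 1) scale understate the ratio of their levels.

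The rest of the 12 lowest genes included several of cell division. HJURP, the chaperone that loads the centromeric histone CENP-A, was at 22.5, 21.0, 20.9 and 20.8 TPM with ONO and RNO and 42.1, 39.2, 34.8 and 39.0 TPM with RNO alone, and fell by 0.83 (limma adjusted p = 3.45e-14). CCNF, which encodes cyclin F, was at 5.34, 5.76, 5.86 and 5.04 TPM and 9.20, 9.55, 9.57 and 9.85 TPM, and fell by 0.70 (limma adjusted p = 1.52e-10). HYLS1, a centriole protein, was at 2.47, 2.73, 2.82 and 2.26 TPM and 5.63, 4.71, 5.08 and 6.50 TPM, and fell by 0.85 (limma adjusted p = 8.22e-11). All of these were separated in every library, as the choice among genes without overlap required. TRIM59, a ubiquitin ligase, fell by 0.72 to 19.7 ± 1.83 TPM, against 33.2 ± 1.96 TPM with RNO alone (n = 4 each, limma adjusted p = 7.08e-12). RGMB-AS1 fell by 0.87, and since the labels do not say whether strand was used in quantification, its reads may not be told apart from those of RGMB. KLF10, a zinc finger factor induced by TGF-beta, was at 18.1, 22.2, 11.7 and 19.6 TPM and 39.2, 44.8, 24.5 and 32.6 TPM and fell by 0.94 (limma adjusted p = 0.0218). That call was lost without RNO replicate 1 (adjusted p = 0.0631), RNO replicate 2 (0.0891) or ONO and RNO replicate 3 (0.118). With the replicate number in the fit KLF10 was called lower (limma adjusted p = 3.1e-06).

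The genes that carry the signal upstream of CREB were little changed in RNA. PTGER4, which encodes EP4 itself, was at 1.26, 1.22, 1.18 and 1.09 TPM with ONO and RNO and at 1.58, 1.27, 1.24 and 1.48 TPM with RNO alone (limma adjusted p = 0.458), so its groups overlapped. Of the 15 tested genes for receptors, Gs and adenylyl cyclases, 0 rose and 0 fell, with a median log2 fold change of 0.03. At an unadjusted p under 0.05 in limma the counts of this list were also 0 and 0, and with the replicate number in the fit 1 gene rose. Of 18 tested genes of protein kinase A and Epac, 3 rose and 0 fell. These were AKAP12, an anchoring protein for protein kinase A at 116 ± 12.2 TPM and 43.3 ± 5.89 TPM (2.67-fold higher), SIK2, a kinase that holds back the CREB coactivators, at 13.8 ± 0.866 and 9.02 ± 0.461 TPM, and AKAP1 at 24.2 ± 0.734 and 19.9 ± 0.967 TPM. The catalytic subunits PRKACA and PRKACB and CREB1 itself had log2 fold changes of -0.01, -0.02 and 0.02, and none of these passed the test.

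Among the phosphodiesterases that break down cAMP, 2 of 7 tested genes rose and 0 fell (3 and 0 with the replicate number in the fit). PDE4D, a target of RNO, was at 13.98, 14.3, 13.6 and 13.5 TPM with ONO and RNO and 2.51, 3.38, 4.26 and 3.65 TPM with RNO alone, 4.01-fold higher (limma adjusted p = 1.22e-15). PDE4B was at 4.53, 3.78, 3.26 and 3.31 TPM and 1.97, 2.27, 1.76 and 1.59 TPM, 1.96-fold higher (limma adjusted p = 9.01e-07). Both genes were separated without overlap. PDE4A was at 1.71, 2.37, 1.67 and 1.49 TPM and 2.11, 1.69, 1.71 and 1.56 TPM, with overlapping groups (limma adjusted p = 0.968). PDE4C, at 0.486 ± 0.129 TPM and 0.422 ± 0.121 TPM, lay under the level at which genes were tested. PDE7A, PDE8A, PDE8B and PDE1C, which belong to other phosphodiesterase families, had log2 fold changes of 0.07, 0.03, 0.16 and 0.03, and none was called, though PDE8B passed with the replicate number in the fit (limma adjusted p = 0.0295).

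Of the 25 tested genes on the list of cAMP and CREB response, 22 rose and 0 fell (23 and 0 with the replicate number in the fit), with a median log2 fold change of 1.36. That list was chosen with earlier results of these data known, so its direction is not independent evidence. Beside the genes above, CD200, a surface glycoprotein, was at 12.9 ± 0.742 TPM with ONO and RNO and 2.41 ± 0.426 TPM with RNO alone, 5.35-fold higher. PER1, a repressor of the circadian clock, was at 24.6, 34.8, 27.8 and 31.6 TPM and 8.43, 12.9, 11.8 and 9.90 TPM, 2.76-fold higher (limma adjusted p = 2.33e-08). BDNF, a neurotrophin and a textbook CREB target, was at 36.0, 37.3, 32.7 and 36.5 TPM and 12.2, 18.2, 16.3 and 14.5 TPM, 2.33-fold higher (limma adjusted p = 6.25e-11). CREM, which encodes CREB-related activators and the early repressor ICER, was at 12.6 ± 1.11 TPM and 8.05 ± 0.407 TPM, 1.56-fold higher. Members of this and the later lists beyond the 3 with the largest changes were singled out after their values were seen. The members that did not pass were FOS (2.52 ± 0.780 and 1.70 ± 0.572 TPM), ICAM4 and CRTC2, with log2 fold changes of 0.38, 0.01 and -0.07. With the replicate number in the fit FOS was called higher (limma adjusted p = 0.0321). The entry shared by LOC102724428 and SIK1, kept off the list by its name and singled out after its values were seen, was at 169 ± 40.3 TPM and 36.3 ± 3.64 TPM, 4.64-fold higher (limma adjusted p = 1.11e-08). Its reads cannot be assigned to 1 of these near-identical genes.

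The full CRE palindrome TGACGTCA, which reads the same on both strands, was looked for in the 300 bases around the start of each gene (250 before and 50 after) in RefSeq's GRCh38.p14. Of the 81 called genes named by rule, 63 had a window, and 3 of these windows held it: AREG, DUSP1 and DUSP8. Over all 27305 windows 540 held it (1.98%). These include windows of genes not tested here, and no share is given for the 9989 windows of tested genes. All 3 genes rose. The windows are shown 5′ to 3′ on the gene's strand, with the palindrome in capitals. AREG lies on the plus strand at chr4:74444886-74445185 with the palindrome 65 bases before its start, DUSP1 on the minus strand at chr5:172771146-172771445 with it 125 bases before, and DUSP8 on the minus strand at chr11:1572222-1572521 with it 118 and 74 bases before.
AREG: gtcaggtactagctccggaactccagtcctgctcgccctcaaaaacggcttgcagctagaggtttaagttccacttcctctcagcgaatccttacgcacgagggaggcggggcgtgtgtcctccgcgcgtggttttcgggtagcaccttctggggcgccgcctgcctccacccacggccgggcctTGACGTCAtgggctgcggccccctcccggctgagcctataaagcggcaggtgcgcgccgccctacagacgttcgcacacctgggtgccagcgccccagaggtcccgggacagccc
DUSP1: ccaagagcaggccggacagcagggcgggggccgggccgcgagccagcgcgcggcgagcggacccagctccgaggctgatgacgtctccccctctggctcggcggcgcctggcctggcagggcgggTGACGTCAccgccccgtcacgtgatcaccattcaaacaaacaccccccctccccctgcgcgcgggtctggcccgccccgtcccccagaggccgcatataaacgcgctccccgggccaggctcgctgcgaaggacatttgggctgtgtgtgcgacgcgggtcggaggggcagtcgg
DUSP8: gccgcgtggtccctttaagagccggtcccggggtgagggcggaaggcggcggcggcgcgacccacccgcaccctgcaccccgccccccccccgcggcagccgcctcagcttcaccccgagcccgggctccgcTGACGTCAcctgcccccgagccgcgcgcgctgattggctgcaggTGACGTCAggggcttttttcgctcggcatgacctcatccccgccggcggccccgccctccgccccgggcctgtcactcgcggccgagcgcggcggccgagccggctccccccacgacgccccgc
A match is a description of these letters and not a measured binding site. Windows were matched for 72.4% of the genes at least 2-fold higher and 79.3% of all genes tested, so no share by direction is given.

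These 3 genes act on the MAP kinase and EGF receptor pathways. DUSP1, a phosphatase that inactivates the kinases p38 and JNK, was at 182, 197, 141 and 191 TPM with ONO and RNO and 61.7, 86.0, 77.7 and 72.5 TPM with RNO alone, 2.38-fold higher (limma adjusted p = 1.9e-08). DUSP8, a related phosphatase, was at 15.3, 18.4, 12.7 and 18.2 TPM and 7.27, 9.09, 7.57 and 8.92 TPM, 1.97-fold higher (limma adjusted p = 5.93e-06). AREG, amphiregulin, a ligand of the EGF receptor, was at 5.91, 9.32, 10.7 and 10.2 TPM and 2.19, 2.79, 3.64 and 2.85 TPM, 3.15-fold higher (limma adjusted p = 1.96e-06). None of the 3 had overlapping groups. Over the list of MAP kinase phosphatases, Sprouty and SPRED proteins, 6 of 13 tested genes rose and 3 fell (6 and 4 with the replicate number in the fit), so its members moved apart. DUSP10, DUSP4, DUSP7 and SPRED2 also rose, and DUSP16 and SPRED1 fell with DUSP6. Over the list of EGF receptor ligands and feedback genes, 5 of 13 rose and 1 fell (7 and 1 with the replicate number in the fit). EPGN, another EGF receptor ligand, was at 1.97 ± 0.297 TPM and 0.923 ± 0.245 TPM, and LRIG1, which opposes the receptor, was at 21.6 ± 1.20 TPM and 13.0 ± 0.902 TPM (limma adjusted p = 0.000121 and 2.03e-09). The receptor genes EGFR and ERBB2 were not called (log2 fold changes 0.03 and -0.08), and ERBB3 fell by 0.21.

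Immediate early transcription factors split by family member. Of 24 tested genes for AP-1, EGR and other early factors, 9 rose and 6 fell (11 and 9 with the replicate number in the fit), with a median log2 fold change of 0.09. FOSB was at 14.2, 14.2, 11.03 and 13.0 TPM with ONO and RNO and 3.83, 5.71, 4.27 and 3.50 TPM with RNO alone, 3.03-fold higher (limma adjusted p = 1.59e-07). ATF3, a stress-induced repressor, was at 53.1, 45.1, 38.7 and 46.8 TPM and 18.4, 20.1, 16.8 and 18.3 TPM, 2.49-fold higher (limma adjusted p = 3.91e-09). JUNB was 2.25-fold, KLF4 3.10-fold and FOSL2 1.61-fold higher, whereas FOSL1, JUN, EGR1 and KLF10 fell as given above. Within AP-1, then, FOSB, FOSL2 and JUNB rose, FOSL1 and JUN fell, and FOS and JUND were not called without the replicate number in the fit (log2 fold changes 0.38 and 0.21). Among 11 tested genes for RGS proteins and related regulators, 2 rose and 2 fell (2 and 3 with the replicate number in the fit). GEM, a small GTPase that inhibits calcium channels, was at 22.5, 28.9, 27.4 and 31.1 TPM and 5.29, 6.79, 9.99 and 8.97 TPM, 3.54-fold higher (limma adjusted p = 1.06e-08), and RGS7 fell by 0.26 beside RGS4.

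Cytokine genes moved in both directions. Of 13 tested genes for cytokines and chemokines, 5 rose and 1 fell (5 and 2 with the replicate number in the fit), with a median log2 fold change of 0.23. IL11, a cytokine of the IL6 family, was at 140.5, 175, 159 and 158 TPM with ONO and RNO and 24.0, 43.2, 56.3 and 33.6 TPM with RNO alone, 4.03-fold higher (limma adjusted p = 1.33e-09). CXCL2, a neutrophil chemokine, was at 2.46, 2.31, 1.36 and 2.42 TPM and 0.449, 0.293, 0.601 and 0.577 TPM, a rise at very low levels (limma adjusted p = 4.34e-06), and reads of CXCL2 and its near-identical paralogs may be shared. CCL2, a monocyte chemokine, was at 199 ± 21.1 TPM and 104 ± 10.4 TPM, 1.91-fold higher, and IL15 was 1.69-fold higher. IL16 fell by 0.39, and LIF, IL18, CXCL1, CXCL16, CLCF1, CCL5 and CSF1 were not called (CSF1 fell with the replicate number in the fit, adjusted p = 0.0249). Genes that restrain inflammatory signalling numbered 20 among those tested, of which 7 rose and 0 fell (1 fell with the replicate number in the fit). SOCS3, an inhibitor of cytokine receptors that signal through STAT3, was at 42.1, 46.6, 49.4 and 54.8 TPM and 15.8, 16.2, 18.5 and 14.7 TPM, 2.96-fold higher (limma adjusted p = 6.56e-13). OTUD1, a deubiquitinase, was at 31.3, 43.0, 38.1 and 42.0 TPM and 12.5, 19.1, 19.6 and 16.8 TPM, 2.27-fold higher (limma adjusted p = 1.75e-07). TNFAIP3 and NFKBIA, inhibitors of NF-kappa B, had smaller rises (1.47-fold and 1.24-fold), and ZFP36, which degrades cytokine mRNAs, was at 5.90 ± 0.801 TPM and 5.89 ± 0.891 TPM and was not called.

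Of 17 tested genes known to be induced by glucocorticoids, 10 rose and 0 fell (12 rose and 1 fell with the replicate number in the fit), with a median log2 fold change of 0.53. No glucocorticoid was added in the groups compared. The list shares CRISPLD2, SGK1, RGS2, PER1, DUSP1 and KLF9 with the cAMP list. Beyond these, CEBPD, a transcription factor of the C/EBP family, was at 87.7 ± 29.1 TPM with ONO and RNO and 35.2 ± 12.2 TPM with RNO alone, 2.49-fold higher, although its groups overlapped. TSC22D3, which encodes the anti-inflammatory protein GILZ, was at 4.65 ± 0.559 TPM and 3.35 ± 0.491 TPM, 1.39-fold higher (limma adjusted p = 0.0188). FKBP5, a sensitive glucocorticoid target, was at 20.5 ± 1.35 TPM and 20.2 ± 1.24 TPM and did not pass the test (limma adjusted p = 0.94). Of 16 tested clock genes, 4 rose and 1 fell. NFIL3, a clock output repressor, was at 31.3, 27.8, 22.9 and 27.0 TPM and 14.2, 13.4, 11.4 and 12.7 TPM (limma adjusted p = 9.53e-08), and BHLHE40, a repressor of the clock, was at 88.2, 70.1, 39.0 and 58.3 TPM and 37.3, 38.3, 26.3 and 26.6 TPM. The call for BHLHE40 (limma adjusted p = 0.0318) was lost with 5 of the 8 libraries left out in turn (adjusted p of 0.0536 to 0.13), and its highest RNO library was just under its lowest ONO and RNO library. With the replicate number in the fit BHLHE40 was called higher (limma adjusted p = 5.13e-07). The core clock genes CLOCK, ARNTL, PER2, CRY1 and CRY2 were not called.

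Genes for glucose handling also moved. Of 19 tested genes for alpha-arrestins and the glucose response, 8 rose and 2 fell (9 and 3 with the replicate number in the fit), with a median log2 fold change of 0.09. SLC2A3, a glucose transporter, was at 56.1, 83.3, 81.5 and 79.0 TPM with ONO and RNO and 17.2, 22.6, 27.7 and 24.0 TPM with RNO alone, 3.28-fold higher (limma adjusted p = 5.77e-10). PPP1R3C and PPP1R3B, which bring protein phosphatase to glycogen, were 3.45-fold and 2.78-fold higher, at 25.01, 20.01, 18.4 and 18.4 TPM and 4.92, 5.98, 6.61 and 6.22 TPM for PPP1R3C. The alpha-arrestins split: ARRDC3 rose (21.8 and 11.1 TPM), whereas TXNIP and ARRDC4 fell. Of 20 tested genes for amino acid supply and ATF4 targets, 7 rose and 1 fell (10 and 1 with the replicate number in the fit). SLC7A5, which imports large neutral amino acids, was at 505, 465, 468 and 456 TPM and 238, 202, 229.5 and 182 TPM, 2.23-fold higher (limma adjusted p = 6.73e-13). SLC38A2, which imports small neutral amino acids, was at 330.4, 352, 370.1 and 324 TPM and 153, 167, 194 and 166 TPM, 2.02-fold higher (limma adjusted p = 9.53e-15). DDIT4, an inhibitor of mTORC1, was at 64.4, 50.4, 39.8 and 51.3 TPM and 21.0, 21.7, 24.6 and 21.1 TPM, 2.33-fold higher (limma adjusted p = 1.14e-07). The 3 were separated without overlap. ATF4 itself and its standard targets ASNS and TRIB3 had log2 fold changes of -0.07, 0.00 and -0.04 and were not called, and PPP1R15A, a phosphatase subunit of the stress response, fell by 0.61.

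Genes of TGF-beta signalling and growth factor genes moved in both directions. Of 21 tested genes for TGF-beta, BMP and ID proteins, 7 rose and 1 fell (10 and 4 with the replicate number in the fit). TGIF1, a repressor of TGF-beta targets, was at 69.8, 65.7, 63.2 and 67.0 TPM with ONO and RNO and 24.1, 27.1, 34.3 and 26.5 TPM with RNO alone, 2.37-fold higher (limma adjusted p = 1.03e-12). ID3, an inhibitor of basic helix-loop-helix factors, was at 18.7, 15.4, 11.7 and 16.3 TPM and 5.69, 7.21, 5.82 and 5.50 TPM, 2.57-fold higher (limma adjusted p = 3.9e-09). FST, follistatin, which traps activin, was at 15.3, 13.0, 16.4 and 15.96 TPM and 7.74, 6.71, 7.81 and 8.26 TPM, 1.99-fold higher (limma adjusted p = 2.29e-09). SMURF2 fell by 0.28 on the log2 scale. Of 17 tested growth factors outside the EGF family, 6 rose and 3 fell (7 and 4 with the replicate number in the fit). FGF9 and FGF18, fibroblast growth factors, were 1.60-fold and 2.57-fold higher, and PDGFB and FGF5 were among those that fell (by 0.52 and 0.46 on the log2 scale).

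Of 21 tested targets and partners of YAP and TEAD, 4 rose and 2 fell (7 and 2 with the replicate number in the fit), with a median log2 fold change of 0.02. Over all genes tested, 6.76% rose and 5.2% fell (10.3% and 10% with the replicate number in the fit). LATS2, the kinase that inactivates YAP, was at 115, 131, 114 and 128 TPM with ONO and RNO and 40.8, 46.9, 46.9 and 45.8 TPM with RNO alone, 2.71-fold higher (limma adjusted p = 3.22e-15). FJX1 and DLC1, on the same list, were 1.44-fold and 1.31-fold higher (limma adjusted p = 1.33e-05 and 0.019). The call of DLC1 was lost with some libraries left out, and held with the replicate number in the fit (limma adjusted p = 2.03e-08). CYR61 and ANKRD1, standard YAP targets, fell by 0.34 and 0.24. CTGF, another, was not called without the replicate number in the fit (log2 fold change 0.31, limma adjusted p = 0.00651 with it). Members of the list thus moved both ways. Of 15 tested proteases, inhibitors and plasminogen genes, 3 rose and 0 fell. PLAUR, the urokinase receptor, was at 33.0, 34.3, 31.6 and 33.8 TPM and 18.6, 16.9, 18.7 and 18.3 TPM, 1.83-fold higher (limma adjusted p = 1.38e-12). PLAT, tissue plasminogen activator, was 1.42-fold and TIMP2, an inhibitor of metalloproteases, 1.18-fold higher, with tight libraries in both groups. Of 20 tested integrins, laminins and collagens, LAMB3 alone rose and ITGA3 alone fell (3 and 2 with the replicate number in the fit), and the call of ITGA3 was lost without replicate 3 of ONO and RNO (limma adjusted p = 0.0611). Of 6 tested genes for prostaglandin synthesis and clearance, PTGES, a prostaglandin E synthase, was the called member, at 6.09, 6.67, 5.88 and 6.34 TPM and 3.79, 2.42, 3.55 and 3.41 TPM (limma adjusted p = 1.75e-07).

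Genes of mitosis fell together by small amounts. Of 27 tested genes on that list, 21 fell and 1 rose (24 and 1 with the replicate number in the fit), with a median log2 fold change of -0.25 beside -0.01 for all genes tested and 5.2% of them called lower. PSRC1, a spindle protein, was at 18.1, 16.3, 16.2 and 16.6 TPM with ONO and RNO and 25.7, 27.1, 27.1 and 26.3 TPM with RNO alone, and fell by 0.63 (limma adjusted p = 2.28e-12). PLK1, a mitotic kinase, was at 57.4 ± 4.73 TPM and 79.2 ± 6.51 TPM, AURKA at 86.7 ± 6.71 TPM and 109.7 ± 7.52 TPM, and CCNB1, cyclin B, at 159 ± 10.9 TPM and 194 ± 8.01 TPM. These kinases and the cyclin drive entry into mitosis, and they fell by 0.46, 0.34 and 0.28. The member that rose, PLK2, is a polo-like kinase known as a p53 target and not as a driver of mitosis, and was 1.62-fold higher. The summed level of the list was 2200 to 2440 TPM in the ONO and RNO libraries and 2600 to 2720 TPM in the RNO libraries. In RNA from a whole culture, fewer dividing cells and less of these RNAs per cell cannot be told apart.

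On the list of MYC, G1 cyclins, CDK inhibitors and p53 targets, 4 of 24 tested genes rose and 3 fell (6 and 6 with the replicate number in the fit). These counts stand beside 6.76% higher and 5.2% lower among all genes tested. BTG1, an antiproliferative protein, was at 19.0, 15.5, 14.7 and 16.9 TPM with ONO and RNO and 8.78, 9.19, 9.93 and 9.78 TPM with RNO alone, 1.75-fold higher (limma adjusted p = 4.23e-11). CDKN1A, which encodes the CDK inhibitor p21, was 1.47-fold and MYC 1.33-fold higher, whereas GADD45A, a DNA damage response gene, fell by 0.48 (limma adjusted p = 0.000944). Of 15 tested genes of the BCL2 family and the caspases, 3 rose and 2 fell (5 and 3 with the replicate number in the fit). BCL2L11, which encodes the pro-apoptotic protein BIM, was at 29.9, 24.5, 24.6 and 24.1 TPM and 10.3, 8.65, 10.6 and 9.33 TPM, 2.65-fold higher (limma adjusted p = 3.44e-12). CASP9, an initiator caspase, was at 11.5, 15.5, 16.8 and 16.5 TPM and 4.87, 5.36, 5.49 and 4.55 TPM, 2.97-fold higher (limma adjusted p = 3.53e-10). PMAIP1, which encodes NOXA, rose 1.56-fold, and the anti-apoptotic genes MCL1 and BCL2L1 fell by 0.29 and 0.15.

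**Figure D3:**
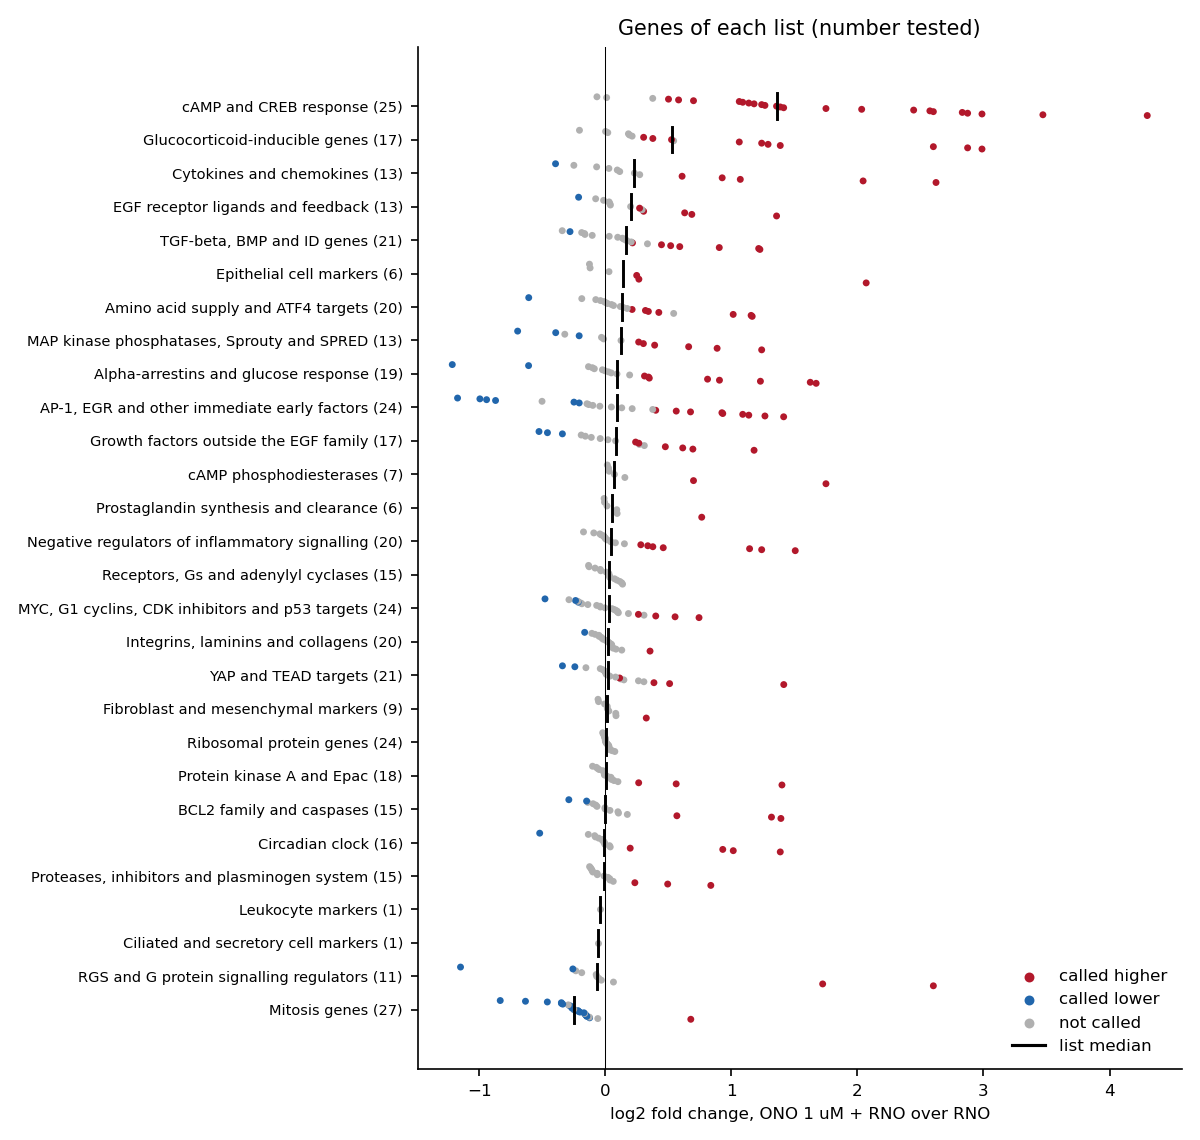
The log2 fold change of ONO 1 uM + RNO over RNO (horizontal axis) is plotted for each tested gene of 28 lists, ordered by list median (black bar), with the number tested in brackets. The cAMP and CREB list has its median at 1.36 with 22 genes in red and 0 in blue, and the mitosis list has 21 genes in blue and 1 in red.

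Markers of cell types moved little apart from KRT17. KRT17, a keratin of basal and wounded epithelium, was at 1283, 1302, 1131 and 1218 TPM with ONO and RNO and 308, 308, 287 and 268 TPM with RNO alone, 4.21-fold higher (limma adjusted p = 5.04e-18). Keratin genes of this type are close in sequence, so some of these reads may belong to KRT16 or KRT14. Of 6 tested epithelial markers 3 rose and 0 fell (3 and 1 with the replicate number in the fit), and the summed level of the list was 1790 to 1990 TPM with ONO and RNO and 873 to 1080 TPM with RNO alone, a gap made up by KRT17. The call of KRT7, at 15.5 ± 0.361 TPM and 12.8 ± 1.31 TPM (limma adjusted p = 0.0309), was lost with 7 of the 8 libraries left out in turn (adjusted p of 0.0523 to 0.149). With the replicate number in the fit KRT7 was called higher (limma adjusted p = 0.00311). Of 9 tested fibroblast and mesenchymal markers, COL3A1 alone rose, at 1.84 ± 0.225 TPM and 1.27 ± 0.231 TPM (limma adjusted p = 0.0113, and 0.06 or 0.0775 without replicate 1 of ONO and RNO or of RNO), and the list summed to 2030 to 2080 TPM and 1930 to 2090 TPM. The single tested ciliated and secretory marker, TUBB4B, and the single tested leukocyte marker, CD68, were not called, and no endothelial marker reached the level tested. Of 24 tested ribosomal protein genes, 0 rose and 0 fell in limma, at an unadjusted p under 0.05 as well, with a median log2 fold change of 0.01. Genes encoded in the mitochondrial genome were not analysed here.

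The same dose of ONO was also given without RNO, against vehicle, in libraries that the comparison above does not share. There 528 genes rose (4.19% of those tested) and 380 fell (3.02%), 7.21% together. With the replicate number in the fit 1136 rose (9.02%) and 954 fell (7.58%), whereas with only ONO alone and vehicle fitted 248 rose and 111 fell. Of the 851 genes that rose with RNO present, 417 also rose without it, which is 49% of the 851 and 79% of the 528. Of the 655 that fell, 177 also fell without RNO, 27% of the 655 and 46.6% of the 380, and 0 genes were called in opposite directions. With only the groups of each comparison fitted, 243 genes rose in both, 35.7% of the 680 with RNO and 98% of the 248 without it, and 64 fell in both. With the replicate number in the fit 678 rose in both (52.2% of 1300 and 59.7% of 1136), 446 fell in both, and 20 were called in opposite directions, ZFP37 and KRT7 among them. Over the 12591 genes the log2 fold changes with and without RNO had a Pearson coefficient of 0.71 and a Spearman coefficient of 0.46, where genes are not independent. Of the 98 genes at least 2-fold higher, 87 were also called higher without RNO. Their median log2 fold change was 1.31 with RNO and 1.02 without it, and 92 of the 98 had the larger value with RNO. These genes were chosen on the response with RNO, so that order is a description.

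**Figure D4:**
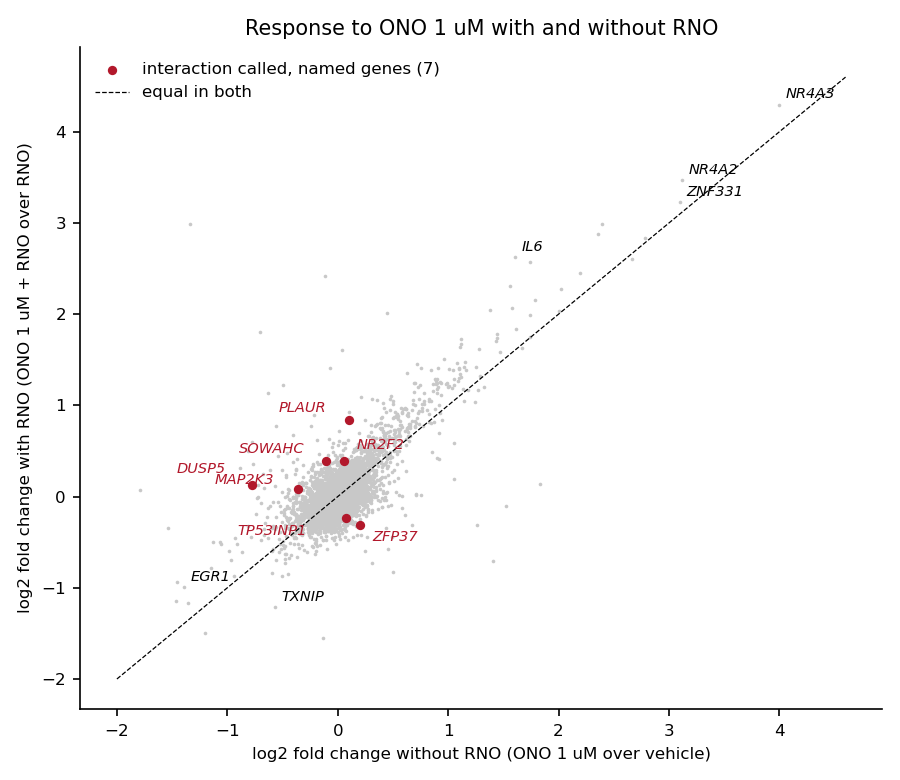
Each point is 1 of 12591 genes, with the log2 fold change of ONO 1 uM over vehicle on the horizontal axis and that of ONO 1 uM + RNO over RNO on the vertical axis; the dashed line marks equal values. Most strongly raised genes lie just above the line. The genes whose difference was called without the replicate number in the fit are marked in red. None of them changed 2-fold in either comparison, and the largest changes were those of PLAUR (0.84 with RNO) and DUSP5 (-0.78 without RNO).

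Whether a response to ONO differed with RNO present was tested as an interaction, and 8 genes were called (0.0635%). The response was higher with RNO for 6 of them (0.0477%) and lower for 2 (0.0159%). PLAUR had the lowest adjusted p. It was at 33.0, 34.3, 31.6 and 33.8 TPM with ONO and RNO and 18.6, 16.9, 18.7 and 18.3 TPM with RNO alone, and at 27.99, 20.9, 24.8 and 23.9 TPM with ONO alone and 23.3, 23.4, 22.5 and 20.9 TPM with vehicle. The log2 fold change of PLAUR was thus 0.84 with RNO and 0.11 without it, a difference of 0.73 (limma adjusted p = 1.7e-05). DUSP5, a phosphatase of ERK, had the largest difference, 0.91 (limma adjusted p = 0.0129). It was at 49.4, 52.5, 43.8 and 48.7 TPM and 39.9, 48.5, 48.8 and 41.0 TPM in the pair with RNO, where the groups overlapped, and at 44.7, 37.5, 39.1 and 43.7 TPM with ONO alone and 64.6, 78.1, 77.4 and 66.7 TPM with vehicle, where they did not. MAP2K3, a kinase upstream of p38, averaged 67.8 TPM with ONO and RNO and 63.8 TPM with RNO alone, and 62.0 TPM with ONO alone and 80.1 TPM with vehicle, a difference of 0.45. For both DUSP5 and MAP2K3 the fall with ONO alone was called and the change with RNO present was not.

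SOWAHC, an ankyrin repeat protein, and NR2F2, an orphan nuclear receptor, rose with RNO present (1.34-fold and 1.31-fold) and were not called without it, with differences of 0.49 and 0.33. TP53INP1, a p53-induced protein, and the zinc finger gene ZFP37 fell with RNO present and were not called without it (ZFP37 was called higher there with the replicate number in the fit, adjusted p = 0.0473), with differences of -0.31 and -0.51. The count of called differences rested on the fit. It was 473 genes (3.76%, 347 higher and 126 lower) with the replicate number in the fit, 2 with only the groups of this comparison fitted, and 7 higher and 1 lower with libraries scaled to equal totals. With the replicate number the calls included genes with large responses. Of the 98 genes at least 2-fold higher, 36 were called, all with the larger response with RNO, against 0 without that term. These 98 genes were chosen on the response with RNO, so the direction is a description. IL6 had a difference of 1.02 (limma adjusted p = 0.0249 with the replicate number and 0.181 without it), RHOB of 0.75 (0.00232 and 0.145), CRISPLD2 of 0.60 (0.0339 and 0.429), SLC2A3 of 0.55 (0.00294 and 0.472) and KRT17 of 0.49 (0.00381 and 0.131). TXNIP, which fell, had a difference of -0.65 (0.000379 and 0.298). Without the replicate number in the fit, leaving out RNO replicate 4 or replicate 2 of ONO alone left 1 gene, PLAUR. Leaving out replicate 1 of ONO alone gave 32, vehicle replicate 3 gave 25, vehicle replicate 1 gave 18, RNO replicate 3 gave 17, RNO replicate 1 gave 16, and ONO and RNO replicate 1 gave 15. Vehicle replicate 3 was the library of the series with the largest deviation from its group. PLAUR was called under each of the 27 other settings, and NR2F2, TP53INP1 and ZFP37 were called under 21 of 27, 22 of 27 and 20 of 26.

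In cells that all had RNO, ONO was given at 0.1 nM, 1 nM and 1 uM, and the genes with the strongest rises at 1 uM had stepwise means. NR4A3 averaged 2.65 ± 1.05 TPM with RNO alone, 9.62 ± 1.33 TPM with 0.1 nM ONO, 16.5 ± 4.26 TPM with 1 nM and 68.6 ± 6.72 TPM with 1 uM (SD, n = 4 each). SGK1 averaged 24.99, 45.0, 71.9 and 190.0 TPM in the same order, IL6 5.66, 8.69, 12.6 and 41.0 TPM, and KRT17 293, 448, 582 and 1233 TPM. Over the 98 genes at least 2-fold higher at 1 uM, 92 had means in the order of concentration. The 1 uM and RNO ends of that order were fixed by the choice of genes, and the means at 0.1 nM were under those at 1 nM in 93. The median share of the 1 uM log2 change was 29.5% at 0.1 nM (quartiles 24.9% and 37.8%) and 48.5% at 1 nM (quartiles 42.3% and 54.6%). Among genes that fell, HJURP averaged 38.8, 31.4, 27.0 and 21.3 TPM, FOSL1 97.4, 90.7, 65.6 and 42.7 TPM, and TXNIP 66.6, 60.0, 53.9 and 28.4 TPM. These steps were not tested, since the genes were chosen at the highest concentration.

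**Figure D5:**
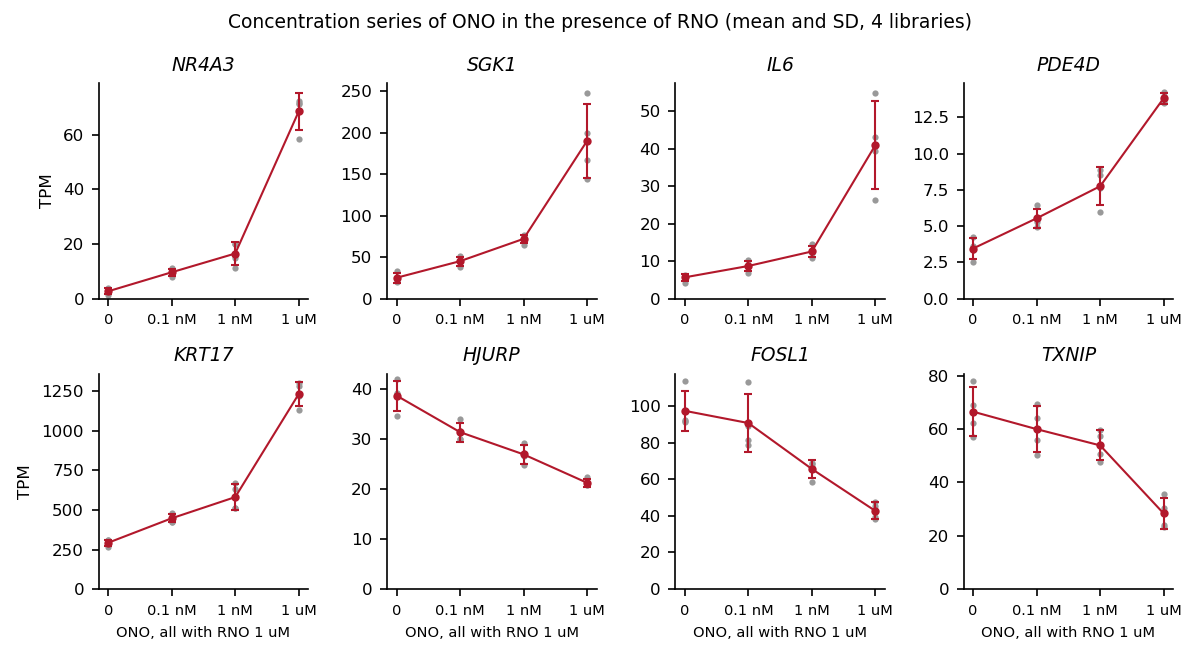
Levels in TPM (vertical axis, from 0) of 8 genes are plotted for RNO alone (0) and for 0.1 nM, 1 nM and 1 uM ONO with RNO, evenly spaced and not to scale on the horizontal axis; grey points are libraries and red points with bars are means with SD of 4 libraries. The 5 genes that rose climb most in TPM between 1 nM and 1 uM, a wider step in concentration than that from 0.1 nM to 1 nM. The means of HJURP, FOSL1 and TXNIP fall at each step.

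ONO and vilanterol act through different receptors on the same messenger, and were compared directly in cells that all had RNO. Between 1 uM ONO with RNO and 100 nM vilanterol with RNO, limma called 0 of 12591 genes (306 at an unadjusted p under 0.05, which is 2.43%). That share is under the 0.05 expected where no gene differs, so the fit may be conservative here. Same-numbered libraries of these groups deviated together (correlations of 0.40, 0.12, 0.23 and 0.19), and this fit had no term for the replicate number. The 95% interval of the log2 difference reached a median of 0.13 to either side. NR4A3 was at 68.6 ± 6.72 TPM with ONO and RNO and 68.9 ± 5.34 TPM with vilanterol and RNO, a log2 difference of -0.01 (95% interval -0.37 to 0.35). IL6 was at 41.0 ± 11.9 TPM and 54.7 ± 16.4 TPM, a log2 difference of -0.41 (-0.84 to 0.02). PDE4D was at 13.8 ± 0.375 TPM and 14.9 ± 0.158 TPM, a log2 difference of -0.10 (-0.30 to 0.10). These 3 intervals include 0, and a missed threshold does not show that the agonists act alike. Of the 98 genes at least 2-fold higher with ONO and RNO, 80 (81.6%) had the lower level with ONO and RNO, beside 50.3% of all genes tested, with a median log2 difference of -0.09. These genes were chosen on the ONO and RNO libraries that enter here, so that count is a description.

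TXNIP came closest to a call between the agonists. It was at 23.5, 24.1, 35.7 and 30.3 TPM with ONO and RNO and at 12.03, 13.2, 19.8 and 16.6 TPM with vilanterol and RNO, a log2 difference of 0.84 (95% interval 0.53 to 1.16, limma adjusted p = 0.0554). With the replicate number in the fit 4 genes were called, 1 higher with ONO and RNO (0.00794%) and 3 lower (0.0238%), chosen here after their values were seen. TXNIP was higher with ONO and RNO (limma adjusted p = 7.66e-09), and CDK17, FST and ADNP-AS1 were lower. TXNIP was also the single gene called with a pseudocount of 0.1, with genes of at least 5 TPM, with equal totals, with library weights, and without replicate 1 of ONO and RNO or replicate 3 of vilanterol and RNO. FST was at 15.2 ± 1.52 TPM with ONO and RNO and 20.5 ± 2.35 TPM with vilanterol and RNO (log2 difference -0.41, limma adjusted p = 9.64e-05 with the replicate number and 0.515 without it).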

How the data were processed

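RNA was measured in BEAS-2B cells in 40 libraries, 10 groups of 4, taken by group and replicate number from the labels. Libraries were directional poly(A) libraries, per the labels' protocols. The builds GRCh37 and hg19 appear in the submitters' processing notes. They also name bcl2fastq 2.18.0.12 as well as kallisto and sleuth, both without a version. The authors deposited a normalised signal per gene, called TPM here, whose column totals were unequal. No counts were analysed here, so depth is unknown.

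Values were taken as log2(value + 1), a scale that understates changes of low genes, and genes whose mean reached 1 TPM were tested with limma 3.58.1 (R 4.3.3, with the data.table package 1.17.8). All 40 libraries were fitted with 1 mean per group (30 residual degrees of freedom), and the model was checked on simulated data. Fold values divide 1 group's mean TPM by the other's, with none given against a library at 0. A test assuming TPM was planned and was kept for the signal. The interaction and the comparison with vilanterol used the same fit.

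Replicate numbers from the labels paired the libraries: same-numbered libraries of both groups deviated together (correlations of 0.48, 0.12, 0.29 and 0.30), and the second principal component of the 8 libraries lay 99.19% between replicate numbers (the first 98.27% between groups). Counts with the replicate number as a block stand beside the counts that it changes. Alternatives were other pseudocounts, filters, scalings, weights, variances and groups fitted, and each library left out.

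Genes named are those 12 whose log2 fold change was highest and those 12 whose was lowest, if called and without overlap, up to 3 called members of each of 30 lists, PTGER4 and the PDE4 genes, and up to 6 genes each way of the interaction and the vilanterol comparison. The comparison, lists and genes were chosen with earlier results of these data known. Promoter windows are RefSeq's in GRCh38.p14, a later build than the authors'. Some genes that this rule selects are not reported here.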

Additional observations from a re-analysis of the deposited data

Results flagged for a closer look

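Within groups of 4 libraries, 12 of 176 groups checked over the named genes had 1 library flagged as apart from the other 3, where chance gives about 1 in 20. With ONO and RNO these were NR4A3 in replicate 3 (58.55 TPM), HJURP in replicate 1 (22.49 TPM), JUN in replicate 2 (40.44 TPM), RGMB-AS1 in replicate 1 (4.393 TPM), CXCL2 in replicate 3 (1.362 TPM), SLC2A3 in replicate 1 (56.09 TPM), FGF9 in replicate 3 (10.57 TPM) and BCL2L11 in replicate 1 (29.89 TPM). With RNO alone they were IL6 in replicate 1 (4.19 TPM), FOSL1 in replicate 1 (113.9 TPM), LRIG1 in replicate 4 (11.69 TPM) and ZFP37 in replicate 4 (2.5 TPM). None of these libraries reached the other group. The gap in level was small for some, such as HJURP, whose other 3 libraries were at 20.8 to 21.0 TPM. It was wider for others, such as CXCL2, whose other 3 were at 2.31 to 2.46 TPM.

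The response to 1 uM ONO differed with RNO present, by a test of the difference itself in limma, for 8 genes. That count was 473 with the replicate number in the fit and 2 with only the groups of the comparison fitted. For the 7 named here the log2 difference (response with RNO minus response without) was 0.906 for DUSP5, 0.731 for PLAUR, 0.494 for SOWAHC, 0.45 for MAP2K3, 0.329 for NR2F2, -0.307 for TP53INP1 and -0.506 for ZFP37.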

How the results depend on the processing

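The count of 1506 called genes stayed within 1.5 times under each other setting tried apart from the replicate block, which gave 2564, and ranged from 1200 to 1391 with 1 library left out. For ONO against vehicle (908) the count was 359 with only its groups fitted, 2090 with the replicate block, 417 with both, and 684 to 1142 with 1 library left out. For the interaction (8) it was 14 with no filter, 2 with only its groups, 473 with the replicate block, 118 with both, 35 with library weights and 1 to 32 with 1 library left out. For ONO and RNO against vilanterol and RNO (0) it was 4 with the replicate block, 1 with a pseudocount of 0.1, a mean of at least 5 TPM, the block with only its groups, equal totals or library weights, and 0 to 1 with 1 library left out. The replicate block without vehicle replicate 3, chosen after seeing the data, gave 683 interaction genes and 1803 genes for ONO against vehicle. The causes were not tested.

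Of the values of 87 tested named genes under these alternatives, 1613 kept their direction and side of the threshold. Another 25 lost their call, for SNORA6, KLF10, BHLHE40, DLC1, ITGA3, KRT7 and COL3A1. Each of these genes was called with the replicate number in the fit of all libraries. The log2 fold change of PDE4A, not called, ranged from -0.0731 (without ONO and RNO replicate 2) to 0.074 (without RNO replicate 1) and was also below 0 without RNO replicate 4 (-0.02). Depth is unknown, so no limit from counting can be given. With 4 libraries a group, the 95% interval of a log2 difference reached 0.13 to either side at the median, between the agonists.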

Other observations

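Of the 98 genes at least 2-fold higher with 1 uM ONO and RNO than with RNO alone, 58 were on none of the gene lists. Those named here were chosen after their values were seen. Surface and membrane proteins were among them. CD24, a mucin-like surface glycoprotein, was at 96.6 ± 15.7 TPM with ONO and RNO and 19.3 ± 4.31 TPM with RNO alone (SD, n = 4 each), 4.996-fold higher (limma adjusted p = 2.5e-12). PLPP3, which dephosphorylates lipid mediators such as lysophosphatidic acid, was at 42.0 ± 3.34 and 9.96 ± 2.15 TPM. ACKR3, a scavenging receptor for the chemokine CXCL12, was at 140.3 ± 15.7 and 49.6 ± 4.71 TPM. CD274, which encodes the immune checkpoint ligand PD-L1, was at 6.38 ± 0.635 and 2.25 ± 0.789 TPM, 2.83-fold higher. Limma's adjusted p was 2.9e-14 for PLPP3, 3.48e-12 for ACKR3 and 2.04e-09 for CD274.

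Developmental transcription factors were also found there. TBX3, a T-box repressor, was at 9.45 ± 0.973 TPM with ONO and RNO and 2.03 ± 0.141 TPM with RNO alone, 4.66-fold higher (limma adjusted p = 2.92e-15). SNAI2, a repressor known from epithelial to mesenchymal transition, was at 8.15 ± 4.07 and 2.69 ± 0.708 TPM, 3.03-fold higher (limma adjusted p = 0.00485). IRX1 was 2.64-fold and FOXC1 2.09-fold higher. Of RNA regulators, TOB1, an antiproliferative protein that recruits the deadenylase complex, was at 104 ± 15.4 and 38.1 ± 1.45 TPM, and CPEB4, which controls polyadenylation in the cytoplasm, was at 18.6 ± 2.13 and 6.11 ± 0.271 TPM. CYP26B1 and RDH10, enzymes that break down and make retinoic acid, were 2.61-fold and 2.15-fold higher, though the libraries of RDH10 overlapped between groups.

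Small RNA entries also met the fold threshold with overlapping libraries, so they stand outside the named genes: SNORD77 and SNORA5C among the higher genes and mir-503 among the lower ones.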
